A study of Homo sapiens with 8 samples.

Results

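Unexposed human lymphoblastoid cells were described from the 2 control libraries of a series of 8, chosen by their treatment label. No measured value set which libraries these were, but earlier results of these data were known when they were chosen. The series followed the response of a lymphoblastoid line to hexavalent chromium by RNA sequencing of polyadenylated RNA. The other 6 libraries came from the same line exposed to 5 µM hexavalent chromium for 24 h, with 2 libraries at 24 h, 2 at 3 days and 2 at 7 days post treatment. All cells, controls included, grew in RPMI medium, and per the labels the 2 libraries of a group are biological replicates of a single cell line. The design places the control before the onset of exposure. Unexposed cells at the later times were not analysed here, so exposure and time in culture cannot be told apart.

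Lymphoblastoid lines are B cells from blood that have been made to grow without limit in culture by Epstein-Barr virus. A viral protein on their surface signals much as an engaged CD40 receptor does, which keeps NF-kB active, and the cells resemble activated B blasts that have taken some steps towards antibody secretion. They keep most B cell surface proteins, present antigen on MHC class II, divide steadily, and show a standing interferon programme.

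The control libraries held 10884838 and 9478459 reads counted to genes. A read in these libraries is worth 0.0919 and 0.106 counts per 1000000 gene counts (CPM), and a gene with no count could still lie at up to 0.276 or 0.317 CPM, the level of 3 counts. Another 50.9% and 54.0% of the reads in the tables fell into entries that name no gene, mostly reads assigned to no feature (44.4% and 47.5%). Replicates differed well beyond counting noise, with a chi-square of 29.1 per degree of freedom over genes, so they were not 1 library deposited under 2 names. Control library 1 was closest to replicate 2 of the 24 h group and control library 2 to replicate 1 of the 24 h group. Only 10 and 12 genes stood 2-fold apart in those pairs, against 155 between the controls, among about as many genes. Counts and list medians that compare the controls with the exposed libraries are therefore given with and without the 24 h group.

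The transcriptome of unexposed cells was broad, and a minority of genes held most of it. Of 23710 gene symbols, 11676 reached 1 CPM in both control libraries and 8304 reached 10 CPM in both. No read fell on 7141 genes in either library. The 68 genes above a mean of 1000 CPM took 15.5% of counts, and the 2485 genes from 100 to 1000 CPM took 58.5%. The 6021 genes from 10 to 100 CPM added 24.4%. The upper 50% of counts came from 938 genes and the upper 90% from 4957. Protein-coding genes took 97.6% of counts in control library 1 and 97.0% in library 2, and long noncoding genes took 1.45% and 1.96%.

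The 20 genes with the most counts took 9.42% of gene counts in control library 1 (exact Clopper-Pearson 95% interval 9.41% to 9.44%) and 8.89% in library 2 (8.87% to 8.90%). These intervals, like every ratio interval given for the control pair, cover counting error only, and reads copied by PCR are not independent molecules. The genes fell into a few functions: protein synthesis, the actin cytoskeleton, antigen presentation, heat shock proteins, and factors typical of activated or secreting B cells. EEF1A1, which brings aminoacyl-tRNA to the ribosome, was at 18425 and 14037 CPM in control libraries 1 and 2. MALAT1, a long noncoding RNA kept in the nucleus, was at 8803 and 13021 CPM. EEF1A1 was thus the lower and MALAT1 the higher in control library 2.

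Actin and its partners formed the second block. ACTG1, cytoplasmic gamma actin, was at 11337 and 8171 CPM, and ACTB, beta actin, at 4875 and 4608 CPM. LCP1, an actin-bundling protein of blood cells, was at 3912 and 3414 CPM, and TMSB4X, which binds free actin, at 2431 and 3061 CPM. The actin genes, EEF1A1, the heat shock protein genes and the HLA genes have near-identical copies or relatives, and how reads shared by copies were counted is not stated, so their levels are uncertain. In the heat shock group, HSPA8, a constitutive chaperone, was at 3079 and 1735 CPM, HSP90AA1 at 2357 and 1797 CPM, and HSP90AB1 at 2280 and 1802 CPM. All 3 were higher in control library 1.

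Immune genes made up much of the rest. B2M, the light chain of MHC class I, was at 7052 and 8168 CPM, HLA-B at 1911 and 2135 CPM, and HLA-DRA, the alpha chain of HLA-DR, at 3287 and 3194 CPM. IGJ, the joining chain of secreted IgM and IgA, was at 4792 and 6132 CPM. Each of these 4 genes differed by less than 1.5-fold between the libraries. RNF213, an interferon-inducible ubiquitin ligase, was at 2231 and 2193 CPM. IRF4, a transcription factor of activated B cells and plasma cells, was at 2842 and 1922 CPM. LAPTM5, a lysosomal protein of blood cells, was at 2345 and 2109 CPM. GAPDH, PABPC1 and NPM1 were also among the 20, between 1967 and 4333 CPM.

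**Figure D1:**
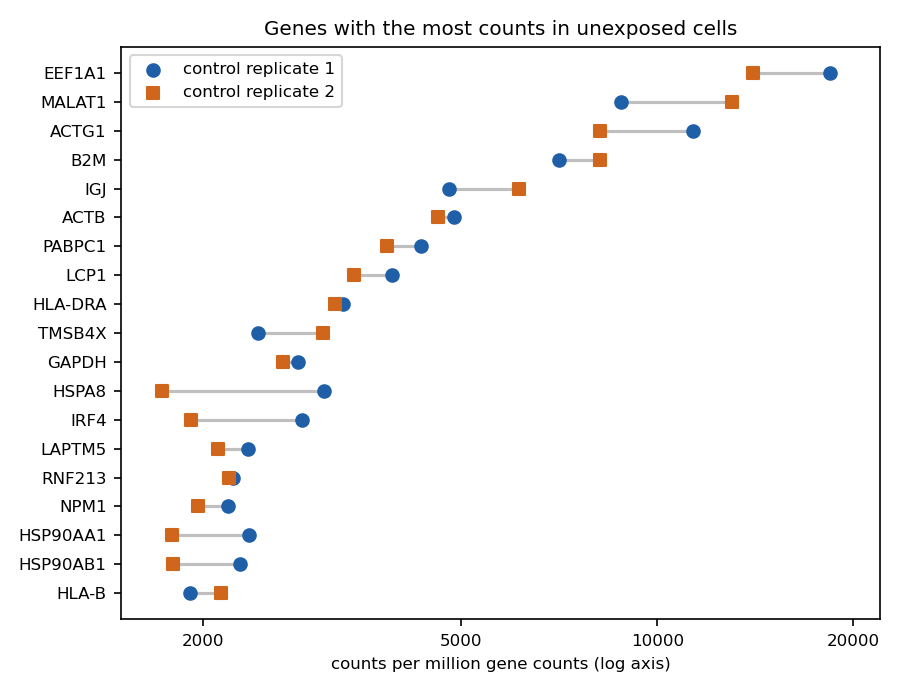
Genes among the 20 with the highest mean level in unexposed cells (1 of them not drawn), with CPM on a log axis and 1 point for each control library (circles, replicate 1; squares, replicate 2). Genes are ordered by counts; HSPA8 and IRF4 are clearly higher in replicate 1, and MALAT1 in replicate 2.

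CPM grows with transcript length, so the order of genes by CPM is an order of counts, and genes were also ranked per kilobase of coding length. On that scale B2M (21316 CPM per kb) and TMSB4X (20802 CPM per kb) came first, followed by EEF1A1 (11711), IGJ (11451) and ACTG1 (8670). The 20 highest genes per kilobase shared 11 with the 20 highest by CPM. Genes that entered had short coding sequences: RPL41, RPS23 and RPS15A of the ribosome, TPT1, PPIA, CDC42SE2, HLA-DPA1, SRGN and CCL22. Their transcripts were not all short, at 699 bases for RPL41 but 4814 for TPT1, 4352 for CDC42SE2 and 2929 for CCL22. Untranslated ends also take reads, so this scale raises genes whose untranslated ends are long. CCL22, a chemokine that attracts T cells and is made by activated B cells, reached 2345 CPM per kb from 758 and 550.4 CPM. SRGN, the proteoglycan of blood cell granules, reached 3183 CPM per kb. RNF213, among the longest coding genes of the first 20, dropped to 140.3 CPM per kb.

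B cell identity was plain in both libraries. Of 30 B identity genes, 27 reached 1 CPM and 22 reached 10 CPM in both control libraries, against 8304 of all 23710 genes at 10 CPM. Their median was 55.0 ± 4.12 CPM (SD, n = 2). MS4A1, which encodes the surface protein CD20, was at 1195 and 1565 CPM. CD22, an inhibitory lectin beside the B cell receptor, was at 106 and 180.3 CPM. CD79A and CD79B, the signalling chains of the receptor, were at 129 and 116 CPM and at 33.9 and 42.6 CPM. PAX5, the factor that fixes B cell fate, was nearly equal at 117 and 121 CPM, and EBF1, which acts with it, was at 41.3 and 51.8 CPM. POU2AF1, a B cell coactivator, was at 451 and 516 CPM.

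Receptors tied to the virus were well covered. CR2 (CD21), through which Epstein-Barr virus enters, was at 299 and 233 CPM, and FCER2 (CD23), an activation marker that the virus induces, was at 331 and 473 CPM. Per kilobase of coding length, MS4A1 (1548 CPM per kb), POU2AF1 (629.7), FCER2 (418) and SPIB (209) led the list. At the low end, VPREB3 (0.551 and 1.48 CPM), BCL11A (0.643 and 1.27 CPM) and FCRL1 (0.367 and 0.739 CPM) lay near the level of a few counts. CXCR5, the receptor that guides B cells into follicles, was at 9.003 and 6.33 CPM.

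**Figure D2:**
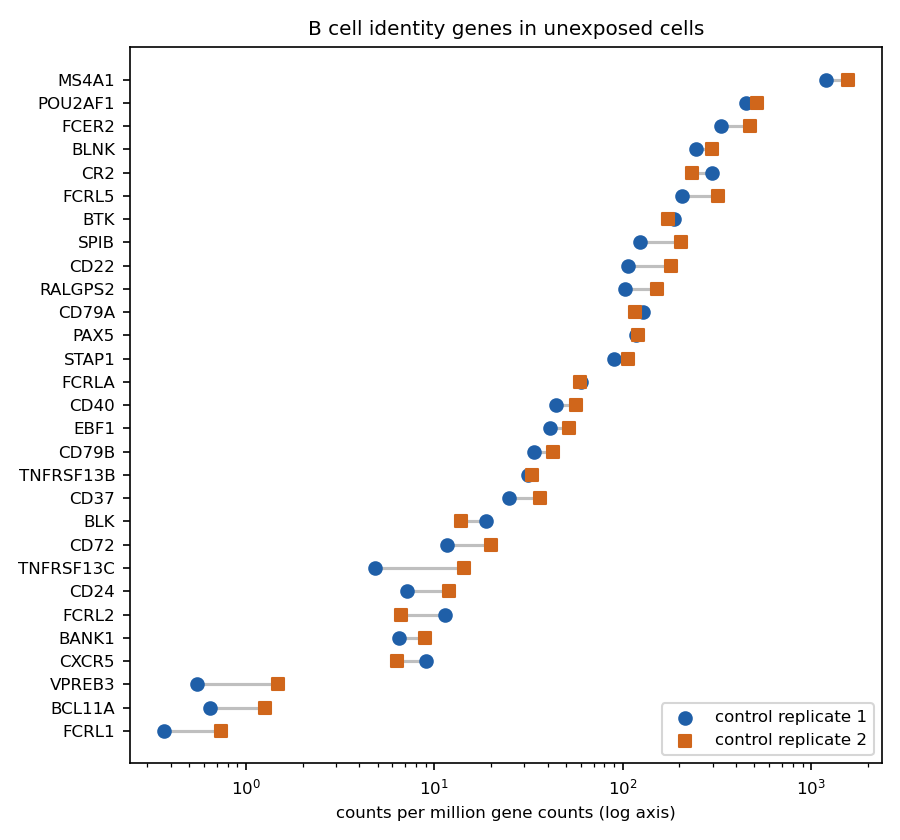
B identity genes in unexposed cells (29 of 30 drawn), in CPM on a log axis, with 1 point for each control library (circles, replicate 1; squares, replicate 2). MS4A1 lies above 1000 in both libraries, 3 genes lie below 2, and most squares stand to the right of their circles.

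Every gene listed for signalling below the B cell receptor was read in both libraries. All 25 listed genes reached 10 CPM in both libraries, with a median of 159 CPM. The kinases LYN (366 and 415 CPM), SYK (168 and 149.7 CPM) and BTK (186 and 175 CPM), which act in that order after receptor engagement, were all present. So were PLCG2, the phospholipase they activate (399 and 366 CPM), and PRKCB, the protein kinase C that links it to NF-kB (612 and 597 CPM). BCL10 (109 and 107 CPM) and MALT1 (278 and 361 CPM), which act together at the next step, were also read. Immunoglobulin heavy, kappa and lambda constant and variable genes were not analysed here.

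Transcription factors of activated B cells and plasma cells were well read, whereas defining germinal centre factors had few counts or none. Of 31 factors, 22 reached 10 CPM in both libraries. Beside IRF4, XBP1, which drives secretion, was at 768 and 729 CPM, and PRDM1, which ends the B cell programme in plasma cells, at 207 and 118 CPM. IRF8 was at 131 and 209.6 CPM and IKZF3 at 769 and 586 CPM. BCL6, the repressor that defines germinal centre B cells, had 1 count in each library (0.0919 and 0.106 CPM). MEF2B had no count in either, and BACH2, which holds off plasma cell differentiation, was at 0.827 and 0 CPM.

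Plasma cell genes were mixed. TNFRSF17 (BCMA), the survival receptor of plasma cells, was at 584 and 320.4 CPM, CD38 at 148 and 143 CPM, and SLAMF7 at 218 and 292 CPM. SDC1 (CD138), the standard surface marker of mature plasma cells, was low at 7.07 and 5.70 CPM. MZB1, a chaperone for antibody assembly, was at 25.2 and 29.4 CPM. On the 16 germinal centre genes found, 9 reached 10 CPM in both libraries, among them STMN1, a tubulin-binding protein also seen in dividing cells generally, at 620.2 and 622 CPM. SERPINA9 and MME, both typical of germinal centre cells, stayed under 1 CPM.

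Antigen presentation, activation and NF-kB genes were broadly present. Of 15 MHC class II genes, 14 reached 10 CPM in both libraries. HLA-DPA1 was at 2051 and 1724 CPM, CD74, the invariant chain, at 927 and 752 CPM, and CIITA, the coactivator that switches the class on, at 97.5 and 73.4 CPM. Of 34 activation genes, 30 reached 10 CPM in both. They included CD44 (738 and 545 CPM), the costimulatory ligand CD80 (201 and 224 CPM), the chemokine CCL3 (331 and 357 CPM) and the cytokine LTA (304 and 548 CPM). Of 30 genes for NF-kB subunits and targets, 28 reached 10 CPM in both. CCND2, the D-type cyclin of B cells, was at 1899 and 1480 CPM. BIRC3, an inhibitor of cell death, was at 550 and 848 CPM, TNFAIP3, the deubiquitinase that restrains NF-kB, at 631 and 700.0 CPM, and the subunit gene NFKB2 at 153 and 155 CPM.

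Markers of other cells were close to the floor, and no list went against the label of a B lymphoblastoid line. Of 21 T and NK cell markers, 1 reached 10 CPM in both control libraries: LCK, a kinase of the T cell receptor that some B cells also make, at 56.9 and 57.0 CPM. CD3D, CD3G, CD8A and CD8B had no count. The summed level of the list was 67.3 and 67.8 CPM, and 60.0 to 71.4 CPM over all 8 libraries. Of 18 myeloid markers, VCAN, a matrix proteoglycan, was at 56.9 and 44.5 CPM and ITGAM at 8.36 and 14.2 CPM, whereas CD14, S100A8, S100A9 and CSF3R had no count. This list summed to 68.4 and 62.1 CPM. None of 19 stromal and epithelial markers reached 10 CPM in both libraries, with ACTA2 at 14.5 and 9.92 CPM, and no erythroid or platelet marker reached 1 CPM.

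Housekeeping and stress lists fixed for this treatment completed the baseline. All 39 DNA replication genes and all 38 G2/M and mitosis genes reached 10 CPM in both libraries, among them RRM2, the small subunit of ribonucleotide reductase (633 and 311 CPM), PCNA, the replication clamp (467 and 366 CPM), and MKI67, the proliferation marker (429 and 435 CPM). Ribosomal protein genes took 26671 and 22547 CPM in sum over 87 genes. Of 37 interferon-stimulated genes, 35 reached 10 CPM in both libraries without any added interferon named in the labels. MX1, an antiviral GTPase, was at 1075 and 1243 CPM and ISG15, a ubiquitin-like modifier, at 561 and 716 CPM. Of 30 p53 targets, 24 reached that level, with MDM2, the ligase that degrades p53, at 1627 and 1205 CPM.

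Genes of growth and metabolism were read almost without exception. All 38 splicing and RNA binding genes and all 20 amino acid tRNA synthetases reached 10 CPM in both control libraries, with HNRNPA2B1, which binds nascent messages, at 1627 and 1778 CPM and WARS, the tryptophan synthetase that interferon induces, at 836 and 776 CPM. So did 35 of 37 translation factors, among them EEF2, which moves the ribosome along (1198 and 873 CPM), and 36 of 39 proteasome subunits. Of 35 glycolysis and hypoxia genes, 31 reached that level, with PGK1, phosphoglycerate kinase, at 1301 and 1296 CPM and ENO1, enolase, at 964 and 1016 CPM. Nuclear-encoded mitochondrial genes were less evenly covered, at 61 of 80 respiratory chain subunits and 57 of 76 mitochondrial ribosomal proteins. ATP5B, the catalytic subunit of ATP synthase, was at 974 and 776 CPM.

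In the secretory pathway, 24 of 25 chaperone and unfolded protein response genes reached 10 CPM in both, with HSP90B1, the HSP90 of the endoplasmic reticulum, at 1841 and 1585 CPM and EDEM1, which marks misfolded glycoproteins for disposal, at 1292 and 1464 CPM. Cholesterol synthesis genes did so in 21 of 25 cases. Early response genes were present in these unstimulated cells at 17 of 25, with MCL1, a short-lived survival factor, at 1512 and 1536 CPM and JUNB, an AP-1 subunit, at 68.4 and 75.2 CPM. Replication-dependent histones were nearly absent, with 2 of 73 at 10 CPM in both: HIST1H2BK (69.1 and 78.6 CPM) and HIST1H4C (13.2 and 10.3 CPM). Most messages of this class end without a poly(A) tail, and these libraries were selected for one.

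Few metal defence genes reached that level. Of 12 metallothionein and metal response genes, 3 reached 10 CPM in both: the metal-sensing factor MTF1 (67.9 and 47.0 CPM) and the zinc transporters SLC39A10 and SLC30A1. MT2A, the main human metallothionein in most cells, was at 3.22 and 3.80 CPM, and 5 metallothionein genes had no count. Of 22 targets of NRF2, the factor that answers oxidants, 18 reached 10 CPM, among them the ferritin chains FTL (808 and 679 CPM) and FTH1 (363 and 528 CPM).

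The control libraries themselves were unlike in many genes. Among 9847 genes with at least 100 counts over both, 155 (1.57%) were at least 2-fold apart. Library 1 was higher in 48 of them (0.487%) and library 2 in 107 (1.09%). This split depended on the minimum count: at 20 counts 246 genes were higher in library 1 and 286 in library 2, and at 500 counts 11 and 44. The gene just inside the limit differed 2.01-fold and the next outside it 2.00-fold. As these are the 2 libraries of a single group, no test was possible, and the genes below are those with the largest ratios. The SD of the log2 ratio fell from 0.49 among genes at 5 to 10 CPM to 0.29 above 1000 CPM, whereas counting alone accounts for 0.25 and 0.016. The spread was above counting error at every level, and most clearly so for abundant genes. In bulk RNA, a different share of cells and a different level per cell cannot be told apart.

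**Figure D3:**
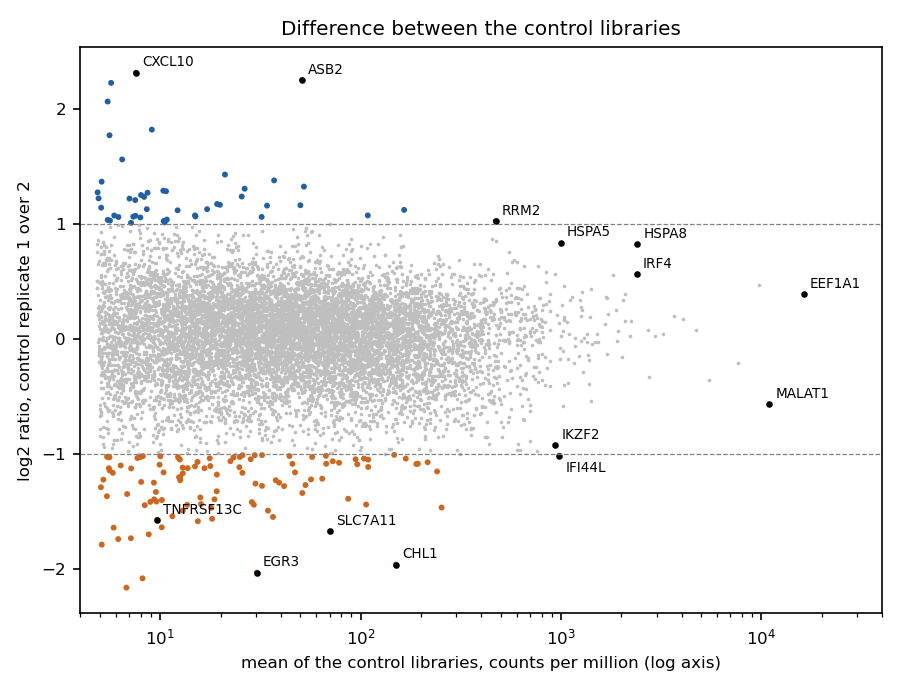
Log2 ratio of control replicate 1 over replicate 2 against the mean level (CPM, log axis), 1 point for each of 9698 genes with at least 100 counts over both libraries (149 with clone identifiers or otherwise not named are not drawn). Dashed lines mark 2-fold; blue points are higher in replicate 1, orange points in replicate 2, and named genes are black.

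Genes higher in control library 2 included signalling and adhesion genes. CHL1, a neural adhesion protein, was at 61.4 and 238.5 CPM in control libraries 1 and 2, 3.89-fold apart (95% interval 3.56 to 4.24). At 24 h the libraries of the group were at 265 and 61.4 CPM in replicates 1 and 2, so the high library carried the other number. EGR3, an early factor induced by receptor signalling, was at 11.9 and 48.7 CPM (4.08-fold, 3.35 to 5.00), and at 65.2 and 12.9 CPM at 24 h. SLC7A11, the cystine importer, was at 33.6 and 107 CPM (3.18-fold, 2.82 to 3.60), and at 148 and 42.5 CPM at 24 h. In each of these 3 genes, a control library thus lay beside the 24 h library of the other number. The largest ratios were those of ACY3 (4.47-fold) and CSRNP3 (4.22-fold), both low, at 2.48 and 11.1 CPM and at 3.12 and 13.2 CPM.

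Others of the 15 with the largest ratios bear on B cell and interferon biology. TNFRSF13C, the receptor for the B cell survival factor BAFF, was at 4.87 and 14.5 CPM (2.97-fold, 2.15 to 4.16). PDCD1LG2, a ligand of the inhibitory receptor PD-1, was at 9.19 and 27.1 CPM (2.95-fold, 2.33 to 3.76). IFNA2, a type I interferon, was at 2.85 and 8.86 CPM (3.11-fold, 2.04 to 4.86). VLDLR, a lipoprotein receptor, was at 7.72 and 23.1 CPM. DBNDD1, RPS6KA6, ENPP5, TOX2 and ERMN made up the rest, at 2.30 to 4.96 CPM in control library 1 and 7.91 to 15.4 CPM in control library 2.

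The gene of a regulatory RNA was also among these 15. MIR146A, which encodes the NF-kB-induced microRNA that restrains interleukin-1 and Toll-like receptor signalling, was at 18.6 and 54.4 CPM (2.92-fold, 2.48 to 3.45), and at 54.7 and 15.4 CPM at 24 h. These reads come from polyadenylated RNA, and the level of the mature microRNA was not measured. The mature strands are shown because their seed, bases 2 to 8 in capitals, decides which messages the microRNA binds. They are RefSeq sequences on GRCh38.p14, at chr5:160485372-160485393 and chr5:160485408-160485429 on the plus strand, 5′ to 3′.
hsa-miR-146a-5p: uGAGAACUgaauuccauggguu
hsa-miR-146a-3p: cCUCUGAAauucaguucuucag

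Fewer genes were higher in control library 1. ASB2, a subunit of a ubiquitin ligase, was at 84.3 and 17.7 CPM in control libraries 1 and 2 (4.76-fold, 4.03 to 5.64), and at 18.1 and 82.2 CPM at 24 h. CXCL10, an interferon-gamma-induced chemokine, was at 12.6 and 2.53 CPM (4.97-fold, 3.205 to 8.02), and at 2.29 and 16.6 CPM at 24 h. GLDC, the glycine decarboxylase, was at 53.5 and 20.6 CPM, and TPRG1 at 30.7 and 11.4 CPM. The 4 libraries of the later times were at 44.7 to 59.7 CPM for ASB2, between its control values, and at 35.9 to 56.1 CPM for GLDC. TEX14, ACBD7, C12orf77, SORT1, SNORD74, AMICA1, MAP4K4, TUBB2A, KIAA1671 and GALM were also among the 15 with the largest ratios, at 6.89 to 37.6 CPM in control library 1. SNORD74 lies inside the host gene GAS5, and its reads cannot be told apart from those of its host.

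Abundant genes with smaller ratios moved more counts. Ranked by the residual of their counts given the library totals, those higher in control library 2 were MALAT1, IFI44L, IKZF2, IGJ, ATP8A1, DST, VPS13C and ATM. IKZF2, the transcription factor Helios, was at 645 and 1222 CPM, and ATM, the kinase that answers DNA breaks, at 494 and 914 CPM. Those higher in control library 1 were EEF1A1, ACTG1, HSPA8, IRF4, HSPA5, TFRC, RRM2 and CALR. TFRC, the receptor that takes up transferrin-bound iron, was at 2170.2 and 1480 CPM. HSPA5, the main chaperone of the endoplasmic reticulum, was at 1276 and 714 CPM (1.79-fold, 1.74 to 1.84).

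Gene lists followed the same division. Among lists with at least 10 genes at 100 counts, DNA replication genes leaned most to control library 1, with 38 of 39 higher there and a median log2 ratio of 0.47, against 0.04 and 54.2% over all 9847 genes. RRM2 was 2.03-fold higher (1.95 to 2.12), and GINS4, part of the replicative helicase, was at 168 and 90.7 CPM. RFC1, the large clamp loader subunit, was the exception at 164 and 228 CPM. Heat shock chaperones leaned the same way in 25 of 26 genes (median 0.34), ribosomal proteins in 72 of 79 (0.24), respiratory chain subunits in 59 of 70 (0.23) and proteasome subunits in 30 of 37 (0.22). G2/M genes were less uniform, at 24 of 38 (0.20). RRM2, GINS4 and RFC1 are named for their ratios, after these were seen, as are single members of the lists that follow.

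Other lists leaned to control library 2. ATF4 response genes, which answer amino acid shortage, were lower in control library 1 in 25 of 27 members, with a median log2 ratio of -0.48. PSAT1, a serine synthesis enzyme, was at 78.4 and 143 CPM, and ASNS, asparagine synthetase, at 78.9 and 112 CPM. SLC1A4, a neutral amino acid transporter, went the other way at 288 and 209 CPM. Amino acid tRNA synthetases, several of which are also ATF4 targets, were evenly divided at 10 of 20 (median -0.01). Cholesterol synthesis genes were lower in control library 1 in 19 of 24 members (median -0.37): INSIG1, the sterol sensor, was at 492 and 796 CPM.

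Interferon-stimulated genes were lower in control library 1 in 32 of 35 members, with a median log2 ratio of -0.45. Of these, 4 were past 2-fold, all higher in control library 2, against 1.09% of all genes in that direction. RSAD2 (viperin) was at 18.1 and 50.9 CPM, IFIT2, which binds viral RNA, at 48.0 and 125 CPM, XAF1, a pro-death factor, at 122 and 258 CPM, and IFI44L at 650.3 and 1312 CPM. STAT2, a signal transducer of the pathway, was at 377 and 516 CPM. CXCL10, often counted with interferon responses, was higher in the other library, as given above.

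The B lists leaned to different sides or to neither. Of 27 B identity genes with enough counts, 20 were lower in control library 1, with a median log2 ratio of -0.33, and 1 passed 2-fold, TNFRSF13C. Plasma cell genes leaned to control library 1 in 10 of 13 (0.31): TNFRSF17 was 1.82-fold higher there (1.75 to 1.90) and PRDM1 1.75-fold (1.63 to 1.88), although IGJ was lower. MHC class II genes leaned that way in 11 of 15 (0.15), and genes for NF-kB subunits and targets the other way in 19 of 29 (-0.06). Receptor signalling genes (12 of 25 higher in control library 1, median -0.01), B transcription factors (13 of 26, 0.02) and activation genes (17 of 34, -0.02) were balanced. The median of the transcription factors changed sign under the other scalings, to -0.00 and -0.01. Among activation genes, the integrin chain ITGAL (226 and 104 CPM) and the chemokine receptor CXCR4 (69.2 and 30.9 CPM) were past 2-fold higher in control library 1.

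**Figure D4:**
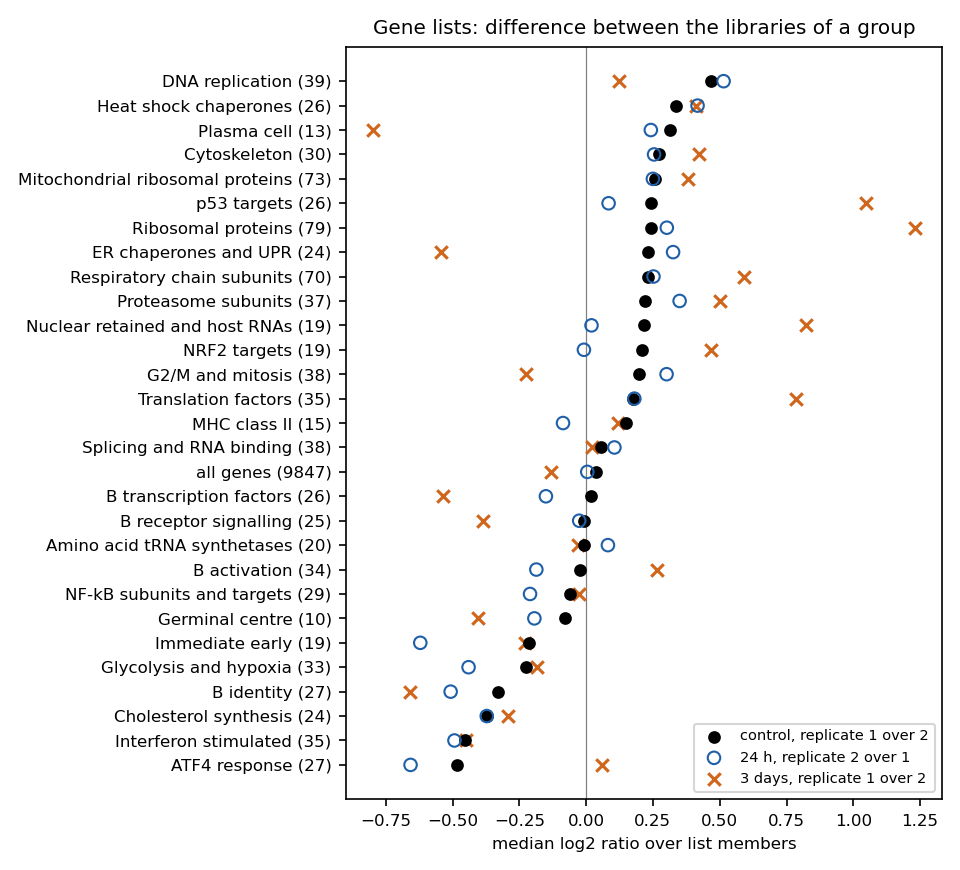
Median log2 ratio between the libraries of a group for each gene list with at least 10 genes at 100 counts (number of members in brackets): control replicate 1 over 2 (filled circles), 24 h replicate 2 over 1 (open circles) and 3 days replicate 1 over 2 (crosses). Among these lists in the controls, DNA replication lies highest at 0.47 and the ATF4 response lowest at -0.48, and the open circles mostly lie near the filled ones.

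Library measures that moved with this difference were base composition and the share of unassigned reads. When genes were divided into 5 equal groups by transcript GC content, those of the lowest group (31.8% to 40.7%) were lower in control library 1, with a median log2 ratio of -0.18 and 28.8% of genes higher there, against medians of 0.01 to 0.15 in the other groups. With the median of its GC group subtracted from each gene, the median was 0.37 for DNA replication, 0.29 for heat shock chaperones, 0.15 for ribosomal proteins, -0.46 for the ATF4 response, -0.55 for interferon-stimulated genes and -0.38 for B identity, each with the sign it had before. The B transcription factors changed sign, from 0.02 to -0.04. For MHC class II genes the median fell from 0.15 to 0.03, with 9 of 15 still higher in control library 1. Coding length went with it less, from a median of 0.09 in the shortest of 5 groups to -0.03 in the longest. Reads assigned to no feature were 44.4% in control library 1 and 47.5% in control library 2. MALAT1 and NEAT1, both nuclear RNAs, were higher in library 2 (NEAT1 at 1151 and 1670 CPM). Their list, nuclear retained and host RNAs, leaned the other way, with 13 of 19 members higher in control library 1. Its median log2 ratio was 0.22, and 0.11 with the GC group median subtracted. The part of these measures in the differences was not tested.

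Promoters of the interferon and chaperone lists were searched for the motifs of their known regulators, in the 250 bases before each RefSeq start and on both strands. The interferon-stimulated response element, spelled GAAANNGAAA, was in 15 of the 26 interferon-stimulated genes that had a promoter in the table, and in 3.07% of 27305 promoters. The endoplasmic reticulum stress element, spelled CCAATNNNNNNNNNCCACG, was in 6 of 22 chaperone genes of that compartment and in 0.0806% of all promoters. Genes with the stress element had a median log2 ratio between the controls of 0.52, and those without it 0.09. For the response element the medians were -0.62 with and -0.42 without, so in both lists the genes with the motif lay farther from 0. The heat shock element GAANNTTCNNGAA was in 3 of 24 heat shock chaperones (0.439% of all promoters), the ATF4 element TGATGNAA in 2 of 23 ATF4 response genes (3.19%), and the E2F element TTTGGCGC in 3 of 33 DNA replication genes (0.553%). In these 3 lists the few genes with the motif lay nearer to 0 than those without it, at medians of 0.21 and 0.34 for heat shock, -0.41 and -0.48 for ATF4, and 0.33 and 0.47 for E2F. Matches that overlapped each other were counted separately, and a match describes the sequence only.

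The 3 genes of each kind with the largest control ratio are shown from 10 bases before their first match to the base before the start, 5′ to 3′ on the gene's strand, with the matches in capitals. IFI44L lies at chr1:78620274-78620447 (plus strand), IFI44 at chr1:78649761-78649788 (plus) and SAMD9 at chr7:93117980-93118125 (minus). CALR lies at chr19:12938374-12938608 (plus), HSPA5 at chr9:125241344-125241419 (minus) and CRELD2 at chr22:49918544-49918633 (plus). The positions are on GRCh38.p14, whereas the counts were made on an earlier build.
IFI44L: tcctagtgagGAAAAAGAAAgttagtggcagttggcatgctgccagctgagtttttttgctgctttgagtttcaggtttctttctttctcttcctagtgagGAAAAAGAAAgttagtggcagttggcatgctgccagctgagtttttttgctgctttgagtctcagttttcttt
IFI44: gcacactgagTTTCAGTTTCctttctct
SAMD9: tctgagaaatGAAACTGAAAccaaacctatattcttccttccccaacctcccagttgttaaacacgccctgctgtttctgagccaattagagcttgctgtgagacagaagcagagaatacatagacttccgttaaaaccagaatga
CALR: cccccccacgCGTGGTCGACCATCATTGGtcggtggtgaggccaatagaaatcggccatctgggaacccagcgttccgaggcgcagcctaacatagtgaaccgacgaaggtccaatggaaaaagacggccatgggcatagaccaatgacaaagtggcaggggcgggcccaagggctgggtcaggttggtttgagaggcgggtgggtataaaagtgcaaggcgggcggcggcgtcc
HSPA5: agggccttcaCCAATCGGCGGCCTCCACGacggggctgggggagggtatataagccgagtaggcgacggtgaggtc
CRELD2: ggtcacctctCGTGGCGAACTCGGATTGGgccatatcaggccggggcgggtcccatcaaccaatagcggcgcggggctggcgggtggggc

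IFI44L holds the response element in 2 copies, at 164 and 73 bases before the start, and its level was 650.3 and 1312 CPM. IFI44, its neighbour, was at 424 and 797 CPM, and SAMD9, an antiviral factor, at 149 and 271 CPM. The 3 stress element genes shown ran the other way: HSPA5 at 1276 and 714 CPM, CALR, the lectin chaperone calreticulin, at 613 and 339 CPM, and CRELD2 at 18.6 and 10.8 CPM. The rest of the listed genes with the element had far smaller gaps in the same direction. XBP1 was at 768 and 729 CPM, HSP90B1 at 1841 and 1585 CPM, and CANX at 1376 and 1158 CPM.

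The same genes separated the 24 h libraries, with the numbers exchanged. Over the 9847 genes, the log2 ratio of control 1 over 2 and that of 24 h replicate 2 over 1 had a Pearson correlation of 0.76 across genes, which are not independent replicates. The direction for 24 h was set after it was seen which libraries lay closest. Of the 48 genes 2-fold higher in control library 1, 47 were also higher in 24 h replicate 2, and all 107 genes higher in control library 2 were lower there, against 77.5% of all genes in the same direction. A 2-fold gap was reached again at 24 h by 30 of the 48 and 73 of the 107. With replicate 1 over 2 at 3 and 7 days, the correlations across genes were 0.40 and 0.39, and 32 and 35 of the 48 and 93 and 93 of the 107 had the direction of the controls, against 63.0% and 61.9% of all 9847 genes. For the genes higher in control library 1 these shares were 66.7% at 3 days and 72.9% at 7 days, and for those higher in control library 2 they were 86.9% at both times.

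**Figure D5:**
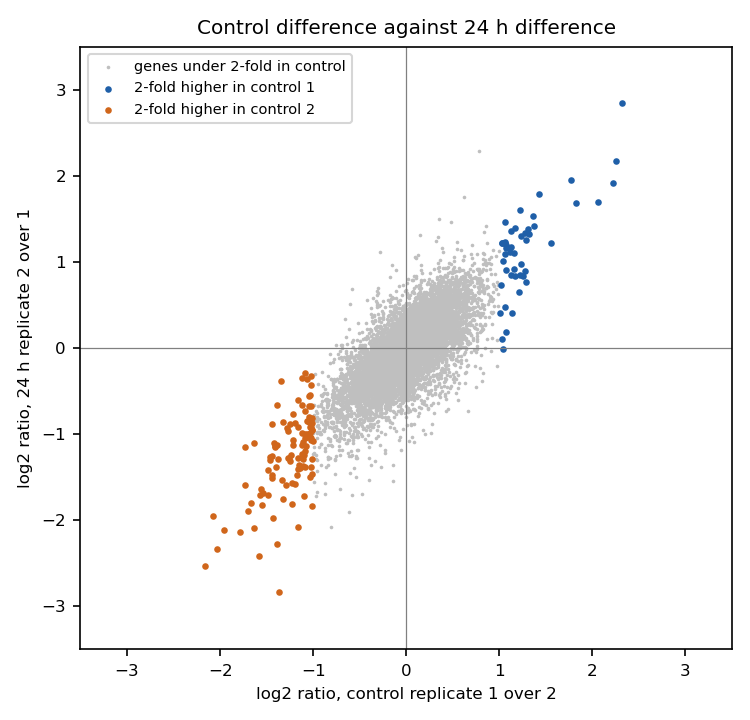
Log2 ratio between the control libraries (replicate 1 over 2) against that between the 24 h libraries (replicate 2 over 1), 1 point for each of 9698 genes with at least 100 control counts. Blue and orange points are the genes 2-fold higher in control replicate 1 or 2; over all genes, drawn or not, 47 of 48 and 107 of 107 have the same sign on both axes.

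Lists varied in how far the later pairs followed. At 24 h (replicate 2 over 1) DNA replication genes had a median log2 ratio of 0.51 with 38 of 39 higher, interferon-stimulated genes -0.49 and the ATF4 response -0.66. MHC class II genes were at -0.09 in that pair, with 6 of 15 higher, against 0.15 in the controls. At 3 days (replicate 1 over 2) interferon-stimulated genes were at -0.45 again and B identity genes at -0.66, while the ATF4 response was at 0.06 and DNA replication at 0.12. Plasma cell genes changed sides, from 0.31 in the controls to -0.80 at 3 days, and ribosomal proteins reached 1.23 there.

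Control cells were set against the mean of the 3 exposed groups with the quasi-likelihood test of edgeR over 12536 genes. It called no gene at an adjusted p under 0.05 (0%), with 372 genes at an unadjusted p under 0.05, and limma-voom also called none. DESeq2 called 1 gene, ITGA1, at an adjusted p of 0.00305, and edgeR without a filter on low counts called 2, CREB3L1 and LTA, both at an adjusted p of 0.0273. All 3 were higher in control, and no B identity gene and no gene of the other B lists apart from LTA was called by any of these fits. In the control libraries 471 genes (3.76%) lay above all 6 exposed libraries and 218 (1.74%) lay below all 6. None of 29 B identity genes did either. Without the 24 h libraries, 1996 of 12347 genes (16.2%) lay above all 4 later libraries and 808 (6.54%) below all 4, among them 6 and 1 of the B identity genes. The p-values set the control difference against the spread between replicates of a group, with the libraries taken as independent. Replicates stood 2-fold apart in 1483 of 9734 genes (15.2%) at 3 days and in 1257 of 9517 (13.2%) at 7 days, against 155 of 9847 in control. Libraries of the same number at 3 and 7 days stood that far apart in only 7 genes for replicate 1 and 9 for replicate 2.

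Among genes that could be named and passed a minimum mean level, the 10 with the smallest p were all higher in control on average. In 9 of these 10 a 24 h library lay within or above the control range. ITGA1, the collagen-binding integrin alpha chain, was at 73.6 and 79.7 CPM in the controls and at 87.1 and 73.7 CPM at 24 h. It was at 21.1 and 20.9 CPM at 3 days and 21.2 and 22.3 CPM at 7 days. Its log2 difference was 1.13 ± 0.16 (SE), with an edgeR adjusted p of 0.965. CREB3L1, a membrane-bound factor of the secretory pathway, was at 3.31 and 3.90 CPM in the controls, at 3.34 and 3.07 CPM at 24 h, and at 0.101 to 0.384 CPM later (2.68 ± 0.40, edgeR adjusted p 0.965).

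CCL22 and LTA, both made by activated B cells, had the same shape. CCL22 was at 758 and 550.4 CPM in the controls, at 573 and 636 CPM at 24 h, at 238 and 197 CPM at 3 days and at 234 and 203 CPM at 7 days (log2 difference 1.02 ± 0.20, edgeR adjusted p 0.997). LTA was at 304 and 548 CPM in the controls, at 472 and 259 CPM at 24 h, and at 81.7 to 146 CPM later (1.36 ± 0.30, edgeR adjusted p 0.997). EMR4P, a pseudogene, was the gene whose controls lay above all exposed libraries, at 5.51 and 6.75 CPM against 0.302 to 5.42 CPM. RASSF4, VCAM1, LINC00158, KIF26B and ALPK2 made up the 10. Over the fits that left out a library, the edgeR adjusted p of these 10 genes ran from 0.704 to 1.00. It ran from 0.450 to 0.728 without both 24 h libraries, where the controls of all 10 lay above the 4 later libraries, and from 0.0742 to 0.244 in a block with the 24 h numbers crossed. Both of these fits were chosen after seeing the data. The 10 genes had been picked by the main contrast from the same control and later libraries, so neither fit is a separate check of them. Without the 24 h libraries the log2 difference was larger, at 1.74 ± 0.18 (SE) for ITGA1, 3.94 ± 0.54 for CREB3L1, 1.47 ± 0.23 for CCL22 and 1.93 ± 0.30 for LTA.

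By list, the control cells stood lower than the exposed mean in 81 of 82 ribosomal protein genes (median log2 difference -0.64) and in 33 of 34 glycolysis and hypoxia genes (-0.38), against 6307 of 12536 genes overall and a median of -0.00. They also stood lower in 26 of 30 p53 targets (-0.46) and 33 of 35 translation factors (-0.33), and not every list is given. They stood higher in 34 of 37 interferon-stimulated genes (0.44), 25 of 30 NF-kB genes (0.30), 25 of 34 activation genes (0.30) and 23 of 29 B identity genes (0.19). No member of any list was called. Without the 24 h libraries the controls were lower in 80 of 81 ribosomal protein genes (-0.95) and 33 of 34 glycolysis and hypoxia genes (-0.57). They were also lower in 26 of 30 p53 targets (-0.57) and 33 of 35 translation factors (-0.44). They were higher in 33 of 37 interferon-stimulated genes (0.59), 23 of 30 NF-kB genes (0.38), 25 of 34 activation genes (0.51) and 22 of 29 B identity genes (0.30), against 6141 of all 12347 genes tested, again with no call. Ribosomal protein genes were also higher in replicate 1 than in replicate 2 at 3 and 7 days, by medians of 1.23 and 0.99 on the log2 scale. The same medians, replicate 1 over 2, were -0.66 and -0.80 for B identity genes. They were -0.45 and -0.52 for interferon-stimulated genes, 1.05 and 1.20 for p53 targets and 0.79 and 0.59 for translation factors. Gaps were smaller for NF-kB genes (-0.03 and -0.09), activation genes (0.26 and 0.21) and glycolysis and hypoxia genes (-0.18 and -0.25). In B identity genes, the control difference was smaller than the gap between these replicates.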

How the data were processed

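RNA from 8 libraries of a lymphoblastoid line was analysed, 2 for each of 4 groups, with groups taken from the sample titles. The authors deposited whole-number read counts per gene symbol, 1 table for each library. The submitters' processing notes list GRCh37 and hg19 as builds and, as tools, R 3.2.3, DESeq2 1.8.1, SAMtools, Bowtie2 and Trim Galore. How reads were assigned to genes (tool, strand, annotation) is not given in the sources used here, so genes that overlap, also on opposite strands, may share reads. The 5 entries that name no gene (50.9% and 54.0% of reads in the controls) were left out of all library sizes.

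CPM is the count divided by the sum of gene counts. Ratios between the controls used genes with at least 100 counts over both, with exact Clopper-Pearson 95% intervals. Coding length, transcript length and GC content came from GENCODE release 29, matched by symbol or RefSeq synonym for 22342 of 23710 symbols. Promoter and microRNA sequences came from RefSeq tables on GRCh38.p14, and no position was carried between builds. Control was compared with the mean of the 3 exposed groups in edgeR 4.0.16 (TMM scaling, filterByExpr, glmQLFit and glmQLFTest on all 8 libraries, 12536 genes, 4 residual degrees of freedom, common biological coefficient of variation 0.276) with Benjamini-Hochberg adjustment and calls at an adjusted p under 0.05. limma 3.58.1 and DESeq2 1.42.0 were alternatives. On data simulated for this comparison over 12536 genes, 18% of the genes set to a 2-fold difference were recovered, rising to 80% at 4-fold, 88% at 8-fold and 94% at 16-fold, with 6 false calls. This was a single draw of independent libraries from a common baseline. It lacked the replicate differences that the real groups share, so it does not give the detection rate in the real libraries.

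Genes named are the 20 highest by CPM and per coding kb, members of the B lists, the 15 largest ratios and 8 largest residuals in each direction between the controls, the 10 smallest p in the contrast, and up to 4 of the most abundant members of each other list. Others were picked after their values were seen. Clone identifiers, sex-linked markers and genes that differ by common inherited copy number were not named, and some genes that the rule selects are not reported here. The gene lists and the libraries described were chosen with earlier results of these data known.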

Additional observations from a re-analysis of the deposited data

How the results depend on the processing

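With 2 libraries a group, and with the replicates of the later groups far apart, a gene that differs little is not detectable. For control against exposed, the count of calls was 0 in the main fit, 2 with no filter and 1 with DESeq2, and 0 with the other scalings, filters and tools. Leaving out each library in turn gave 0 to 0 calls, with 108 to 788 genes at an unadjusted p under 0.05. The labels do not say that replicate numbers pair the libraries, and the gene-wise difference of replicate 1 minus 2 correlated at -0.60 between control and 24 h, 0.34 between control and 3 days and 0.81 between 3 and 7 days. A replicate block gave 0 calls and 415 genes at an unadjusted p under 0.05, against 372 without it. Chosen after seeing the data, a block with the 24 h numbers crossed gave 0 calls and 1270 such genes, a fit without both 24 h libraries gave 0 and 727, and the GC-centred list medians are given with the results. The share of the 20 highest genes was 9.16%, but 4.36% of all reads including the entries that name no gene, and 7.17% for the 20 highest per kb of coding length. It ran from 8.91% to 9.45% with a control library left out, detected genes from 11963 to 12059, and the B identity median from 52.0 to 57.9 CPM. The 155 genes 2-fold apart became 532 at a minimum of 20 counts (246 higher in control library 1), 55 at 500 counts (11 higher there), and 336 when the 95% interval had to lie wholly past 1.5-fold. This count cannot be made with a control library left out. TMM and RLE scaling lowered every log2 ratio between the controls by 0.02 and 0.03. The 46 genes named for their control difference could not reverse under such shifts, as the ratio nearest to 0 was that of IGJ at -0.36. Under the 2 scalings, 81 of their values stayed within the counting interval of the main ratio and 11 moved outside it.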
